A study of Mus musculus with 2 samples.

Results

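The genes described here are 10 genes of the cytosolic nucleic acid sensing pathway, chosen by symbol from the 24091 genes listed: Mb21d1, Tmem173, Ddx58, Ifih1, Dhx58, Mavs, Zbp1, Tbk1, Trex1, and Adar. All 10 symbols were found in the table. Mb21d1, Tmem173, and Ddx58 are the older names of the genes now called Cgas, Sting1, and Rigi. RNA was sequenced from 2 libraries of C57BL/6 mouse cells labelled as primary adipocytes, 1 from mice without radiation (sham) and 1 from mice given pelvic radiation of 7.5 Gy for 5 days. Both titles also name PBS, whose role the labels do not state. The cells came from gonadal fat taken 2 months after the radiation. The fat was dissociated with collagenase, and its floating fraction was cultured for 3 days. The labels do not give the age of the mice, the number of mice behind each library, or whether 7.5 Gy was the daily or the total dose. As each condition had a single library, the differences could not be tested and have no replicate check.

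Cells read nucleic acid in the cytosol as a sign of infection or of damage. DNA in the cytosol is bound by cGAS (Mb21d1), which makes a cyclic dinucleotide that activates STING (Tmem173), while double-stranded RNA is bound by the helicases RIG-I (Ddx58) and MDA5 (Ifih1), which signal through MAVS on mitochondria. Both routes meet at the kinase TBK1, which activates IRF3 and so induces type I interferon. TREX1 degrades cytosolic DNA and ADAR edits double-stranded RNA, and each thereby limits sensing of the cell's own nucleic acids. Several of these sensors, among them RIG-I, MDA5, LGP2 (Dhx58), and ZBP1, are themselves induced by interferon.

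Values were deposited as log2(FPKM + 0.1), where FPKM is the number of fragments corrected for gene length and library total. Levels are given below as FPKM, and differences as irradiated minus sham on the deposited log2(FPKM + 0.1) scale. Fragments per gene were recovered from the whole-number steps of low values, which gave totals of 30600000 fragments in the sham library and 35000000 in the irradiated library. The intervals of differences are exact 95% Clopper-Pearson intervals of the fragment ratio per library total. They cover counting error alone, since each condition had a single library. PCR copies of a fragment are counted as if independent, so the intervals may be too narrow even for counting error. The adipocyte label was checked against 12 markers of mature adipocytes, of which 8 did not reach an FPKM of 1 in either library. Among these 8 was Adipoq, at 0.133 in the sham library and 0.232 in the irradiated library. Markers of fibroblasts and progenitors summed to an FPKM of 4365 in the sham library and 3459 in the irradiated library, so the material is described here by its label alone. In bulk RNA, fewer cells of a type and less RNA per cell cannot be told apart.

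Of the 10 sensor genes, 9 reached an FPKM of 1 in each library, and Trex1 was listed at 0 in both. Tmem173 was the most abundant, with an FPKM of 20.7 in the sham library and 19.3 in the irradiated library, followed by Tbk1. Ddx58, Adar, and Mavs came next, in that order in both libraries, and their counting intervals did not overlap with those of their neighbours. Zbp1, Ifih1, Mb21d1, and Dhx58 were the lowest of the 9, between 1.65 and 3.15 in the sham library and between 2.33 and 4.34 in the irradiated library. Among neighbours in this order, Zbp1 and Ifih1 had overlapping counting intervals in both libraries. Ifih1 and Mb21d1 overlapped in the sham library alone, while Tmem173 and Tbk1, and Mb21d1 and Dhx58, overlapped in the irradiated library alone.

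**Figure D1:**
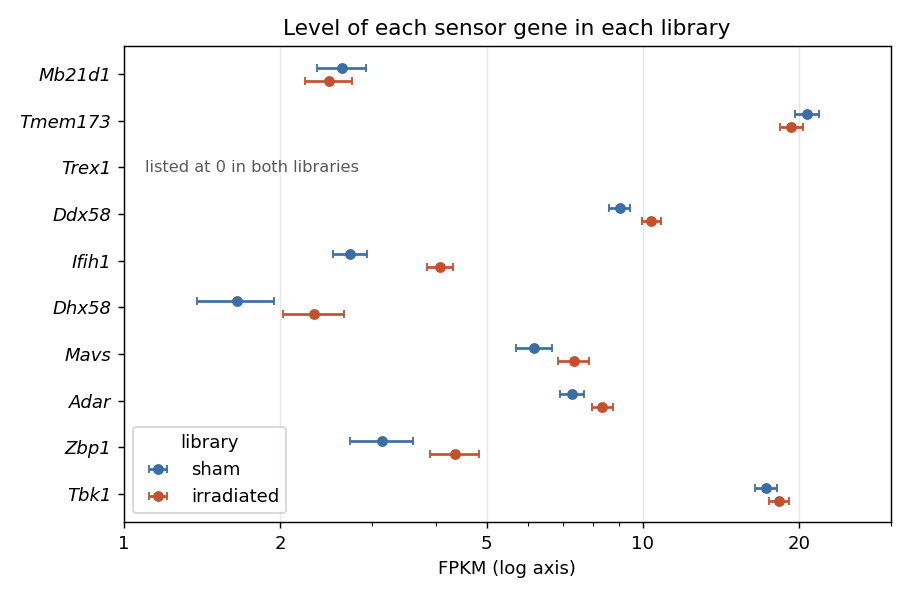
Level of the 10 sensor genes (rows, ordered by role) in FPKM on a log axis, with 1 point per library and bars for the exact 95% Poisson interval of the fragments, which covers counting error only. Trex1 was listed at 0, and the bars of the libraries lie apart for Ddx58, Ifih1, Dhx58, Mavs, Adar, and Zbp1.

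The DNA sensing genes were at nearly the same level in both libraries. Mb21d1, on chromosome 9 from 78430518 to 78443237 (mm10, the build named in the submitters' processing notes), encodes the DNA sensor cGAS. Its FPKM was 2.63 in the sham library, on 332 fragments, and 2.48 in the irradiated library, on 359 fragments. The difference was -0.08, with a counting interval from -0.30 to 0.14. Tmem173 encodes the adaptor STING. Its FPKM of 20.7 and 19.3 rested on 1454 and 1552 fragments. The difference was -0.10, with an interval from -0.20 to 0.00 that includes 0. Both genes were thus slightly lower in the irradiated library, with counting intervals that include 0.

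Whether Trex1, which encodes the exonuclease that removes cytosolic DNA, was expressed could not be told from these values. It lies on chromosome 9 from 109057932 to 109059908 and was listed with no fragments in either library, which for a gene of its length of 1.715 kb would allow an FPKM of up to 0.0572 and 0.05 (3 fragments). Its span lies inside that of Atrip, a partner of the DNA damage kinase ATR, which is read from the same strand. In the GENCODE M21 annotation of the same assembly, all 1147 exonic bases of Trex1 lie within exons of Atrip, which has 7152. The deposited lengths differ from these, at 1.715 kb for Trex1 and 4.209 kb for Atrip, so the overlap of the deposited gene models may differ. Atrip itself had an FPKM of 2.75 in the sham library and 2.36 in the irradiated library, a difference of -0.21. Apart from Trex1, 8 protein-coding genes had at least 99% of their exonic bases inside exons of another protein-coding gene on the same strand, and 3 of these were listed at 0 in both libraries, compared with 22.2% of the 19692 genes that share none. The counting of fragments shared by both genes is not described in the sources, so the 0 of Trex1 is a listed value, not a measure of its expression, and the values of Atrip may hold its fragments. None of the other 9 genes shared exonic bases with another protein-coding gene on the same strand. The last 8 bases of Adar overlap Chrnb2 on the opposite strand, which had 21 fragments in each library.

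**Figure D2:**
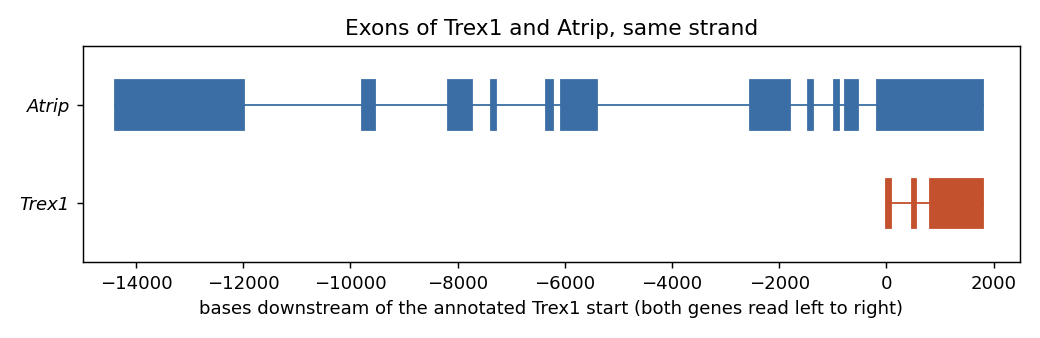
Exons (boxes) of Atrip and Trex1 in the GENCODE M21 annotation, with distance in bases from the annotated start of Trex1 on the horizontal axis and both genes read from left to right. All 1147 exonic bases of Trex1 fall inside the last exon of Atrip.

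The RNA sensing genes were higher in the irradiated library, and MDA5 differed the most. Ifih1, on chromosome 2 from 62595793 to 62646255, encodes MDA5, the sensor of long double-stranded RNA. Its FPKM was 2.73 in the sham library, on 660 fragments, and 4.07 in the irradiated library, on 1126 fragments. The difference was 0.56, which is 1.47-fold, with a counting interval from 0.44 to 0.72. It was the only one of the 10 genes above 0.5, and 363 of the 11253 genes that reached an FPKM of 1 in either library, called the genes kept below, had a larger difference.

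Dhx58, on chromosome 11 from 100694884 to 100704271, encodes LGP2, the helicase of this family without signalling domains, which modulates the other two. Its FPKM was 1.65 on 137 fragments in the sham library and 2.33 on 221 fragments in the irradiated library. The difference was 0.47, with the widest interval of the group, from 0.18 to 0.81, since it had the fewest fragments. Ddx58, on chromosome 4 from 40203777 to 40239825, encodes RIG-I, the sensor of RNA with a 5′ triphosphate. It was the most abundant of the helicases, with an FPKM of 9.03 on 1762 fragments and 10.4 on 2319 fragments. The difference of 0.20 was smaller than that of Ifih1, and its interval ran from 0.11 to 0.29.

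Mavs, on chromosome 2 from 131234063 to 131248024, encodes the mitochondrial adaptor through which RIG-I and MDA5 signal. Its FPKM was 6.18 in the sham library and 7.36 in the irradiated library, on 601 and 820 fragments. The difference was 0.25, with an interval from 0.10 to 0.41. Adar, on chromosome 3 from 89715022 to 89753455, encodes the enzyme that edits adenosine in double-stranded RNA. Its FPKM was 7.31 in the sham library, on 1347 fragments, and 8.36 in the irradiated library, on 1761 fragments. The difference was 0.19, with an interval from 0.09 to 0.30. The table gives 1 value per gene, so the interferon-induced and constitutive isoforms of ADAR were not separated.

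Zbp1, on chromosome 2 from 173206612 to 173218922, encodes the sensor of left-handed (Z-form) nucleic acid, which binds RIPK3 and can trigger necroptosis. Its FPKM was 3.15 on 207 fragments in the sham library and 4.34 on 327 fragments in the irradiated library. The difference was 0.45, the third of the group by size after Ifih1 and Dhx58, with an interval from 0.21 to 0.72. Tbk1, on chromosome 10 from 121546456 to 121586794, encodes the kinase shared by the DNA and RNA routes. Its FPKM was 17.3 on 1591 fragments and 18.3 on 1925 fragments. The difference was 0.08, and its interval, from -0.02 to 0.18, includes 0.

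**Figure D3:**
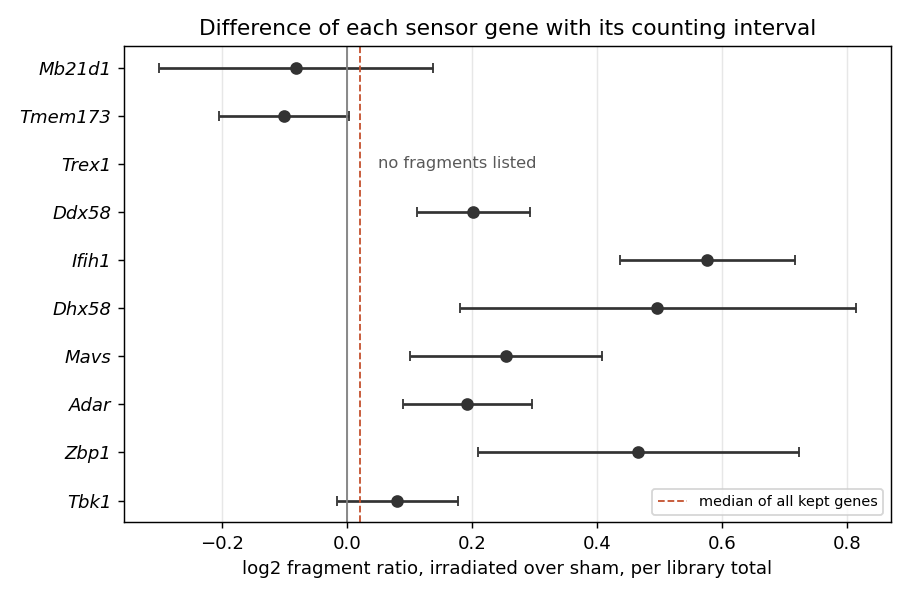
Log2 fragment ratio of each sensor gene, irradiated over sham, per library total (horizontal axis), with bars for the exact 95% counting interval and a dashed line at the median difference of all genes kept, 0.02. The bars of Ifih1, Dhx58, Zbp1, Mavs, Ddx58, and Adar lie above 0, and those of Mb21d1, Tmem173, and Tbk1 include 0.

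Of the 9 genes measured, 7 were higher in the irradiated library and 2 were lower, compared with 53.5% and 44% of all 11253 genes kept. The median difference was 0.20, against 0.02 over all genes kept. A difference of at least 0.5 was reached by 1 of the 9 genes, and 4.31% of all genes kept were higher by that amount. In the other direction, 0 of the 9 were lower by at least 0.5, compared with 1.44% of all genes kept. At a difference of at least 0.25, the counts were 4 of 9 genes and 13.8% of all genes kept, with Mavs at 0.25 and Ddx58, at 0.20, below it, and 0 of the 9 were lower by that amount, compared with 6.04%. At a difference of at least 1, the counts were 0 of 9 in either direction, with 0.791% of all genes kept higher and 0.373% lower. The counting interval lay above 0 for 6 of the 9 genes, compared with 23.8% of all genes kept, and below 0 for 0 of the 9, compared with 17.5%. These shares are descriptions, since the genes of a pathway are not replicates of a condition.

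**Figure D4:**
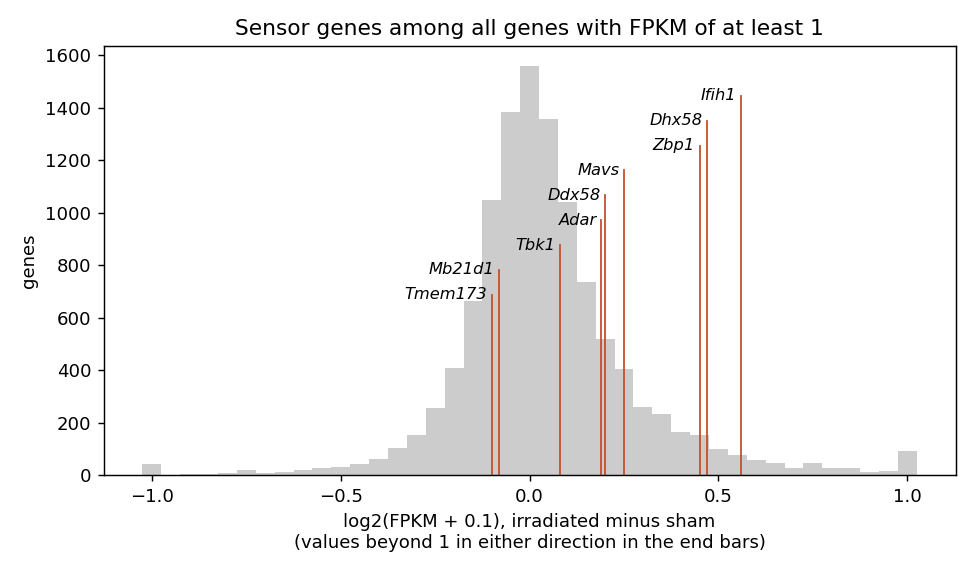
Number of genes (vertical axis) by difference on the log2(FPKM + 0.1) scale (horizontal axis) for the 11253 genes kept, with red lines at the 9 sensor genes measured. Line heights serve only to separate the names. Ifih1, Dhx58, and Zbp1 lie in the right flank, at 0.45 to 0.56, while Mb21d1 and Tmem173 lie left of 0.

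Ratios between genes of the same library do not depend on how the libraries were scaled, so transcript levels were compared for chosen pairs of sensor genes. Protein names in these ratios stand for the transcripts. The ratios do not measure the activity of a route, and the share of all gene pairs with such changes was not computed. The ratio of MDA5 (Ifih1) to cGAS (Mb21d1), in FPKM, was 1.04 in the sham library and 1.64 in the irradiated library, a log2 change of 0.66 with an exact conditional 95% counting interval from 0.40 to 0.92. That of RIG-I to cGAS went from 3.43 to 4.18, a log2 change of 0.29 with an interval from 0.05 to 0.52, and that of ZBP1 to cGAS from 1.20 to 1.75, with an interval from 0.21 to 0.89. Thus MDA5, RIG-I, and ZBP1 were higher relative to cGAS in the irradiated library by more than counting error, while LGP2 was not compared with cGAS.

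Of the adaptors, the ratio of MAVS to STING was 0.298 in the sham library and 0.381 in the irradiated library, a log2 change of 0.35 with an interval from 0.17 to 0.54. By contrast, the ratio of STING to its activator cGAS was 7.87 and 7.78, with an interval of the log2 change from -0.26 to 0.23. Within the helicases, MDA5 relative to RIG-I went from 0.302 to 0.392, with an interval from 0.21 to 0.54, whereas LGP2 relative to RIG-I went from 0.183 to 0.224, with an interval from -0.03 to 0.62 that includes 0. ADAR relative to MDA5 was lower in the irradiated library, at 2.05 compared with 2.68.

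Promoter sequence was examined because interferon-induced genes are bound by interferon regulatory factors at a response element. The core GAAANNGAAA was searched on both strands, with no other motif searched, in RefSeq windows (GRCm38.p6) from 250 bases before to 50 bases after each annotated start. Of the 10 sensor genes, 7 had at least 1 window, in 10 windows in all, while Tmem173, Dhx58, and Zbp1 were not matched. The core was found for 2 of the 7 genes, Ifih1 and Ddx58, and 3.99% of all 27025 genes with a window hold it. In windows, these were 2 of 10, compared with 3.44% of all 32851. Both matches lie just after the annotated start and are shown here in 30 bases each, 5′ to 3′ on the strand of the gene, with the core in capitals. In Ifih1 the core reads forward, at bases 33 to 42 after the start, and in Ddx58 it reads as the reverse complement, at bases 3 to 12.
Ifih1, chr2:62646206-62646235, minus strand: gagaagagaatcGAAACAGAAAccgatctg
Ddx58, chr4:40239804-40239833, minus strand: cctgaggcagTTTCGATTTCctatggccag
The genes with this core were thus those of 2 of the helicases, whose differences were 0.56 and 0.20. The windows of Mb21d1, Tbk1, Mavs, Adar, and Trex1 did not hold these letters. Among genes kept, a difference of at least 0.5 was reached by 7.93% of the 328 with the core and by 3.61% of the 8418 without it, and the medians were 0.04 and 0.02. A match describes the letters in a window and is not evidence of a binding site.

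The partners of each route, from lists of pathway genes, had medians closer to that of all genes kept than the sensors did. Of 20 DNA sensing partners kept of 21 listed, 11 were higher and 9 were lower, with a median difference of 0.045 and none at 0.5 or beyond. The largest differences were those of Aim2, the DNA sensor of the inflammasome, at 0.40, Stim1, which holds STING in the endoplasmic reticulum, at 0.36, and Xrcc5, a subunit of the DNA end-binding Ku complex, at 0.19. The lowest were Slc19a1, a carrier that takes up cyclic dinucleotides, at -0.26, and Nlrx1, at -0.22 with an interval that includes 0. Of 14 RNA sensing partners kept of 16 listed, 3 were higher and 11 lower, with a median of -0.055. The 2 left out, Ddx60 and Nlrc5, were higher, at 0.66 and 0.33, with intervals above 0. These rested on 106 and 203 fragments for Ddx60 and 138 and 205 for Nlrc5. With no filter, the median of this list was -0.045.

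Trim25, a ubiquitin ligase that acts on RIG-I, had a difference of 0.23 and an interval from 0.15 to 0.31. Eif2ak2, the kinase PKR that stops translation on binding double-stranded RNA, had a difference of 0.21, and Zc3hav1, a binder of CpG-rich RNA, one of 0.02. Rnf125, which marks RIG-I for degradation, was lower, with an FPKM of 5.88 in the sham library and 4.10 in the irradiated library, a difference of -0.51 with an interval from -0.77 to -0.27. Rnf135, which activates RIG-I, had a difference of -0.32 and an interval from -0.62 to -0.03. The ligases that act on RIG-I thus did not differ in 1 direction.

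The relay from TBK1 to transcription was mostly level, and 2 of its 17 counting intervals, those of Irf7 and Ikbkg, lay above 0. All 17 genes were kept, and 10 were higher and 6 lower, with a median of 0.01. Irf3, the factor that TBK1 phosphorylates, had an FPKM of 7.42 in the sham library and 8.12 in the irradiated library, a difference of 0.13 with an interval that includes 0, from -0.04 to 0.30. Irf7, its interferon-induced relative, had an FPKM of 22.2 and 32.6, a difference of 0.55 with an interval from 0.45 to 0.65. Ikbkg, the NEMO subunit of the NF-kB kinase, differed by 0.26. Ikbke, the kinase closest to TBK1, differed by -0.16 and Traf2 by -0.12, both with intervals that include 0. Of the partners of ZBP1 in cell death, Ripk3 differed by 0.19, Mlkl, the executor of necroptosis, by 0.15, Casp8 by 0.11, and Ripk1 by -0.05, less than Zbp1 itself at 0.45.

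Of 16 genes that clear or process nucleic acids, 12 were kept, 5 higher and 7 lower, with a median of -0.045. Of the 4 left out, Pld4 was higher, at 0.90 with an interval from 0.44 to 1.66, on 34 and 80 fragments. Dnase1 and Rnaset2a had no fragments in either library, and Dnase1l3 had 3 and 8, with an interval that includes 0. Dnase1l1, of the DNase I family, had an FPKM of 6.05 in the sham library and 9.41 in the irradiated library, a difference of 0.63 with an interval from 0.44 to 0.84. Pld3, a lysosomal exonuclease, differed by 0.39 and Pnpt1, which degrades mitochondrial RNA, by 0.15. Samhd1, which depletes nucleotides, differed by 0.03. Rnaseh2c and Rnaseh2a, subunits of the enzyme that removes ribonucleotides from DNA, differed by -0.27 and -0.12. The interval of Rnaseh2c lay below 0, while that of Rnaseh2a, from -0.30 to 0.06, includes 0.

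Of 12 genes of the endosomal sensors, which read nucleic acid taken up from outside the cell, 11 were kept, 7 higher and 3 lower, with a median of 0.08. Tlr8 had an FPKM of 2.67 and 4.31, a difference of 0.67, and Tlr13, a receptor for bacterial ribosomal RNA, one of 10.4 and 14.4, a difference of 0.47. Irf5 differed by 0.33. Tlr3, the endosomal receptor for double-stranded RNA, was at 4.31 in both libraries, and Ticam1, its adaptor, differed by -0.34. Cnpy3, a chaperone of these receptors, differed by -0.09. Tlr9, the receptor for DNA, was near the floor, with 9 fragments in the sham library and 12 in the irradiated library.

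Interferon genes were listed with 1 fragment or none, while most genes induced downstream were higher in the irradiated library. Of 10 interferon genes listed, 9 had no fragments in either library, and Ifnb1 had 0 in the sham library and 1 in the irradiated library. The sources do not say how fragments that match several similar genes were counted. These zeros are therefore listed values and may miss such fragments. If no fragments were lost in this way, the upper limit of FPKM (3 fragments) depends on gene length. It lay between 0.0814 and 0.172 for these 9 genes in the sham library and between 0.0711 and 0.151 in the irradiated library. The receptor genes Ifnar1 and Ifnar2 differed by -0.16 and -0.22, with intervals below 0, and Ifngr2 by 0.16. Among 10 output genes of these pathways, a list written with earlier values of Cxcl10 and Ifit3 known, 9 were kept, 8 of them higher and 7 higher by at least 0.5, with a median of 1.11. Over all genes kept, 53.5% were higher and 4.31% were higher by at least 0.5. Because of how the list was written, its counts and median are descriptions only. Cxcl10, a chemokine, had an FPKM of 2.59 and 9.89, a difference of 1.89. Ifit3 and Rsad2, both antiviral effectors, differed by 1.77 and 1.73, and Isg15, a ubiquitin-like protein, by 0.71. Ccl5 was not higher, at -0.18 with an interval that includes 0. Each of the sensors differed by less than 7 of these 9 output genes, a comparison that the choice of the list may have favoured. Ifit3 has a near-identical copy, and its fragments could have been split.

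**Figure D5:**
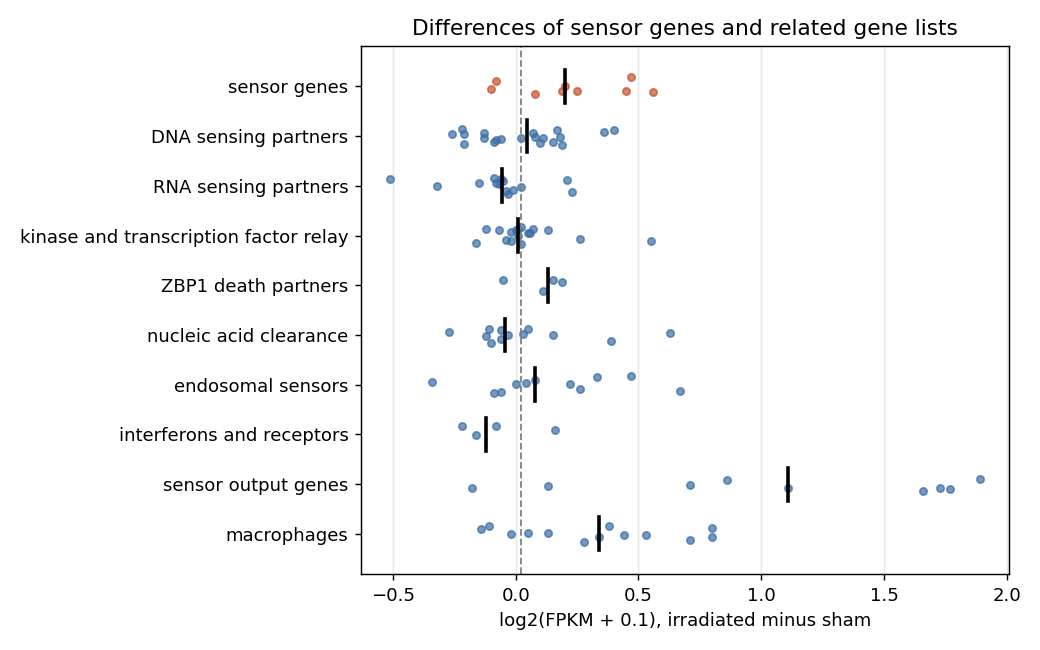
Difference of each gene kept (points) on the log2(FPKM + 0.1) scale (horizontal axis) for the sensor genes and related lists (rows), with vertical scatter added for legibility, black bars for list medians, and a dashed line at the median of all genes kept. The sensor genes have a median of 0.20, the output genes 1.11, the macrophage markers 0.34, and the relay 0.01. The list of output genes was written with earlier values of Cxcl10 and Ifit3 known.

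Markers of other cell types differed between the libraries as well, and their part in the differences of the sensor genes was not tested. All 13 macrophage markers were kept, 10 of them higher and 4 higher by at least 0.5, with a median of 0.34 and the complement subunits C1qa and C1qc the highest, both at 0.80. Their summed FPKM was 633 in the sham library and 682 in the irradiated library, and none was at 0. Most of each sum was Lyz2, at 443 and 410, which differed by -0.11 with an interval below 0. Of 8 mesothelial markers, 4 reached an FPKM of 1 in both libraries, of which 3 were higher and 1 lower, with a median of 0.885. The other 4, among them Msln at 2.18, reached it in the irradiated library alone and so had to be higher there. The lower one was Wt1, the most abundant of the 8 in both libraries, at an FPKM of 20.4 and 18.7. It differed by -0.13, with an interval below 0. The summed FPKM of all 8 was 34.5 in the sham library and 49.5 in the irradiated library. Of 8 endothelial markers, 6 were higher, with a median of 0.165, a summed FPKM of 44.6 and 48.6, and Emcn at 0.33. Of 10 fibroblast and progenitor markers, 9 reached an FPKM of 1 in both libraries, of which 3 were higher and 6 lower. Their median was -0.33, with Pi16 at -0.55, while Thy1 was higher, at 0.40 with an interval from 0.22 to 0.59. Dpp4, at 0.44, reached it in the irradiated library alone and so had to be higher there. With Dpp4 included, the median was -0.20.

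Adipocyte markers had a median of 0.10 over the 4 of 12 that were kept, with Cd36 at 0.45. Their summed FPKM was 227 and 271, most of it Cd36, at 118 and 161, and Fabp4, at 96.9 in both libraries. Of the 8 left out, Plin1 and Plin4 were higher, at 0.71 and 0.67, with intervals above 0. These rested on 26 and 56 fragments for Plin1 and 32 and 70 for Plin4. No other adipocyte marker left out had an interval that excluded 0. Lymphocyte markers summed to an FPKM of 3.59 in the sham library and 2.25 in the irradiated library, and 0 of 10 reached an FPKM of 1 in both. Cd3g, at -0.77, reached it in the sham library alone and so had to be lower in the irradiated library. Of the 9 under an FPKM of 1 in both, Cd79a was lower, at -1.58, on 29 and 8 fragments. Its interval, from -3.39 to -0.89, lay below 0. Nkg7 alone of the 9 was higher, at 0.33, on 3 and 5 fragments with an interval that includes 0. Dendritic cell markers summed to 4.77 and 4.43, with 2 of 8 kept, Itgax, at -0.01, and Ccr7, at -0.34 with an interval from -0.82 to 0.09 that includes 0. Itgax was named after its value was seen.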

How the data were processed

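Polyadenylated RNA of 2 libraries, 1 per condition, was sequenced after a stranded library preparation, as the labels state. The table deposited by the authors holds, per gene and library, the log2 of FPKM with 0.1 added, to 2 decimals, beside coordinates and gene length. The build named in the submitters' processing notes is mm10, and the aligner, the counting tool, and any filters are not given in the sources. The paper does not describe these libraries. FPKM was recovered by reversing the logarithm, and the total of each library as the value for which genes with few fragments gave whole numbers. All 2566 such genes in the sham library and 2515 in the irradiated library were whole to within 0.12. Fragments of abundant genes are approximate because of rounding. The procedure was checked on simulated data. Genes that reached an FPKM of 1 in either library were kept. Because each condition had 1 library, no p-value was computed. The genes and lists were chosen with earlier results of these data known. The genes named were all 10 sensor genes and a few key genes of the pathway. Among genes kept, the 3 highest and 2 lowest differences of each pathway list were named, and the largest difference of each marker list. Also named were neighbours that overlap a sensor gene, Adipoq, and others chosen after their values were seen. Proteins were not compared. SciPy 1.17.1, pandas 2.3.3, numpy 2.4.6, and matplotlib 3.10.9 were run under Python 3.11.15.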

Additional observations from a re-analysis of the deposited data

How the results depend on the processing

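No paired analysis was possible because sham and irradiated cells gave a single library each, so no replicate could be left out either. The differences of the 9 measured sensor genes stayed within their counting intervals and kept their direction under log2(FPKM + 1), no added constant, centring on the median, no filter, a minimum FPKM of 5 (for the 5 genes that reached it), scaling without the 100 most abundant genes, and removal of the trend with gene length. That of Ifih1 ranged from 0.44 to 0.58, that of Dhx58 from 0.33 to 0.50, and that of Mb21d1 from -0.11 to -0.06. The median of the sensor genes ranged from 0.18 to 0.20. The medians of the pathway lists with at least 6 genes kept stayed within their 95% binomial ranges from ordered values under the same alternatives, although that of the relay, 0.01, was -0.01 after centring and those of the clearance genes and of interferons and receptors were 0.00 with no filter. Centring moved all genes by -0.02. The counts followed the setting. The number of sensor genes higher by at least 0.5 was 1, and 0 with log2(FPKM + 1), which shrinks low genes, 0 with an FPKM of at least 5, which left 5 of the genes and removed Ifih1, 4 with a threshold of 0.25, and 0 with a threshold of 1. Over all genes kept, 485 were higher and 162 lower by at least 0.5. These counts were 263 and 95 with log2(FPKM + 1), 1324 and 681 with no filter, 186 and 56 with an FPKM of at least 5, 1550 and 680 with a threshold of 0.25, and 89 and 42 with a threshold of 1. Depth limits Dhx58 and Zbp1 the most, with 137 and 207 fragments in the sham library.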
